A study of Mus musculus with 5 samples.

Results

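The Notch pathway was described here through 33 genes, chosen by name as its receptors, ligands, glycosylating enzymes, gamma-secretase subunits, nuclear factors, HES and HEY genes and regulators. A probe was found for 32 of them among the 16917 genes tested, and Dtx3 was not analysed here. Each gene was read from its brightest probe by the mean over all samples. Signals came from Illumina BeadArrays of whole tumour tissue from 5 mouse gliomas, 3 labelled mutIDH1 and 2 labelled wtIDH1, and the mean log2 difference between these groups is the quantity compared. All tumours arose in Ntva_Ink4a/Arf-/- mice of mixed FVB/N, C57BL6, BALB/C and 129 background, with no age stated in the labels. Ntva animals carry the avian receptor tva under the nestin promoter, so that only nestin-expressing cells take up the RCAS viruses made by DF1 chicken fibroblasts. Both groups received virus for PDGFa, the growth factor that drives these tumours, and for shp53, a short hairpin construct named for its target p53. They differed in the IDH1 delivered together with shp53, which was mutant in the mutIDH1 group and wild-type in the wtIDH1 group. Animals were left untreated and followed until they fell ill, and each sample has its own tumour code. The comparison asks which transcripts of the glioma and its surroundings go with the form of IDH1.

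Notch receptors pass signals between touching cells. A ligand of the Delta or Jagged family on one cell pulls on the receptor of its neighbour, a metalloprotease and then gamma-secretase cut the receptor, and its intracellular domain enters the nucleus to join the DNA-binding protein RBPJ and a Mastermind coactivator. The complex switches on HES and HEY repressors, which hold back neuronal differentiation in neural progenitors and, in vessels, help to set arterial and mural cell identity. In brain tumours the pathway is known from glioma stem-like cells as well as from the tumour's vessels.

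The target genes Hes5 and Hey2 bear the letters bound by RBPJ, GTGGGAA on either strand, in 2 copies near their start, and their sequences are shown because no other member in the promoter table held as many. The window covers 250 bases before the transcript start and the first 3 bases after it, from RefSeq's promoter table of build GRCm38.p6. Hes5 lies at chr4:154960673-154960925 on the plus strand and Hey2 at chr10:30842781-30843033 on the minus strand. Both are printed 5′ to 3′ along the gene, with each copy of GTGGGAA or of its reverse complement TTCCCAC in capitals.
Hes5: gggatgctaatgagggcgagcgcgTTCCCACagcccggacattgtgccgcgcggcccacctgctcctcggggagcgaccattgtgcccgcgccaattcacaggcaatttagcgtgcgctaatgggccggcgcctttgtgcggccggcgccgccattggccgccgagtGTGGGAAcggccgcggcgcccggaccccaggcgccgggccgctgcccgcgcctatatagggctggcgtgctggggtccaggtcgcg
Hey2: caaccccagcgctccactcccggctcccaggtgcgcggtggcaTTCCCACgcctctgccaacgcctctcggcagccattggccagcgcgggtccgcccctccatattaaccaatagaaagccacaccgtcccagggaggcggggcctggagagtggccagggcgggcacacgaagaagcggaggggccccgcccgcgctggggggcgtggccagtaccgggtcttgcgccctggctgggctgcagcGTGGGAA
In Hes5 the reverse copy began 226 bases and the forward copy 83 bases before the start. In Hey2 the reverse copy began 207 bases before the start and the forward copy 4 bases before it, so that this copy crossed the start. The forward copy filled the last bases of the window, so the count of 2 for Hey2 depends on where the window ends. Of the 27 members in the table, 5 held at least 1 copy (Aph1a, Hes5, Hey2, Lfng and Psen2), and only Hes5 and Hey2 held 2. The other 6 members (Dtx3, Dtx4, Hes1, Hey1, Heyl and Mfng) had no promoter in the table and were not searched. Over all 27025 genes of the table, 6.26% held at least 1 copy and 0.204% held 2 or more in a window. A match is a description of the letters only.

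None of the 32 measured members passed the test between mutIDH1 and wtIDH1 gliomas, which was limma with Benjamini-Hochberg adjustment over all 16917 genes at 0.05. Over all genes 1.35% passed, 0.449% higher and 0.899% lower in mutIDH1, and 2.14% of the genes with a mean signal above background did. The members nearest to the threshold were Maml2, a Mastermind coactivator, at 0.66 ± 0.10 (log2, SE) above wtIDH1 with an adjusted p of 0.0539, and the receptor gene Notch1 at −0.45 ± 0.07 with an adjusted p of 0.0639. At an unadjusted p under 0.05 there were 10 members (31.2%), 6 higher and 4 lower in mutIDH1, against 14.4% of all genes, 7.11% higher and 7.25% lower. Among genes with a mean signal above background these shares were 10 of 25 members (40%) and 21.6% of 10556 genes. The background level was 7.52 on the log2 scale. The size of the differences, taken without sign, had a median of 0.30 log2 over the 25 members above background and of 0.16 over all genes above it.

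The direction was mixed. Of the 32 members 14 stood higher and 18 lower in mutIDH1, with a median difference of −0.033 log2, beside 0.014 over all genes. The groups did not overlap for 13 members (40.6%), 7 higher and 6 lower, against 30.6% of all genes, 16.7% higher and 14% lower, or for 11 of 25 members (44%) against 35% where the mean signal was above background. Differences of at least 1.5-fold were reached by 3 of the 32 members (Dner, Maml2 and Nrarp), all higher in mutIDH1, beside 4.35% of all genes. The mean signal was above background for 25 of the 32 members and for 62.4% of all genes. The 1.5-fold share among genes above background was not counted.

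**Figure D1:**
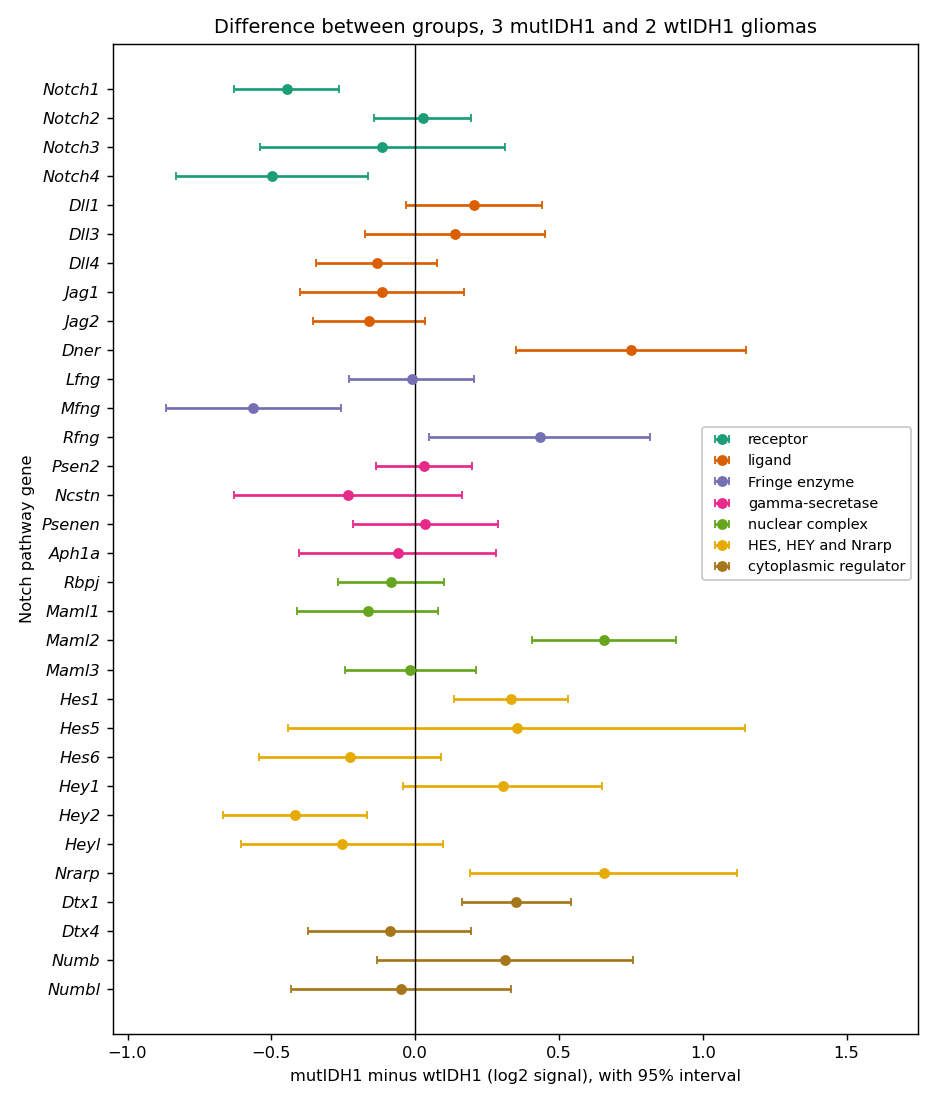
Difference between mutIDH1 and wtIDH1 for the 32 measured Notch pathway genes (horizontal axis, log2 signal), coloured by role, with the 95% interval of limma's moderated test. Dner (0.75), Maml2 (0.66) and Nrarp (0.66) stand farthest to the right, and Mfng (−0.56), Notch4 (−0.50) and Notch1 (−0.45) farthest to the left.

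Among the receptors, Notch1 and Notch4 stood lower in mutIDH1. Notch1, a receptor of neural progenitors, had log2 signals of 9.94, 9.94 and 10.04 in mutIDH1 samples 1 to 3 and of 10.41 and 10.43 in the wtIDH1 samples. Every mutIDH1 value lay below both wtIDH1 values, and the gap of 0.37 between the groups was wider than the spread within either. The difference of −0.45 corresponds to a signal 1.36-fold higher in wtIDH1 (95% interval −0.63 to −0.27 log2), and with any single sample left out it stayed between −0.48 and −0.43. Notch4, the receptor known mainly from endothelial cells, was at 9.55, 9.89 and 9.89 in mutIDH1 and at 10.19 and 10.36 in wtIDH1. These groups did not overlap either (−0.50 ± 0.13, adjusted p = 0.173). A second Notch4 probe, above background in 3 of 5 samples, showed a difference of 0.0058.

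Notch3, the receptor of mural cells, had overlapping groups, with 7.76, 7.997 and 7.89 in mutIDH1 and 7.74 and 8.25 in wtIDH1. Its wtIDH1 samples lay on either side of all mutIDH1 samples, and the difference was −0.11 ± 0.17 (adjusted p = 0.849). Both probes of Notch2 were at or under background in every sample, so its level was not read by this array.

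Markers of endothelial cells were lower in mutIDH1 too, as were those of blood. The 10 endothelial markers had summed linear signals of 8172 to 10218 in mutIDH1 and of 14982 to 15217 in wtIDH1. Of them 3 fell by the test and 0 rose, namely Vwf, the von Willebrand factor (−1.34 ± 0.14, adjusted p = 0.0267), the sialomucin Emcn (−1.26 ± 0.13, adjusted p = 0.0267) and the junction protein Cdh5 (−0.84 ± 0.10, adjusted p = 0.0384). None of the 10 was at or under background in all samples. The 9 mural markers summed to 4541 to 5491 in mutIDH1 and to 7354 to 9482 in wtIDH1, with 2 that fell, Acta2 (−2.19 ± 0.18, adjusted p = 0.0186) and Pdgfrb (−0.68 ± 0.07, adjusted p = 0.0281), 0 that rose, and Myh11 at or under background. The mural sum was set by Acta2: without it the other 8 markers summed to 3724 to 4758 in mutIDH1 and to 4293 and 5046 in wtIDH1, which overlap, and 3 of the 9 (Cspg4, Rgs5 and Myh11) had differences above 0. The endothelial groups stayed apart without Vwf, the marker with the largest difference there (7747 to 9654 against 13820 to 13968), and 9 of its 10 markers had differences below 0. The 3 red blood cell markers tested summed to 6544 to 15616 in mutIDH1 and to 23782 and 29179 in wtIDH1, with 0 passing by limma (2 lower at an unadjusted p under 0.05). The 7 microglia and macrophage markers summed to 2893 to 3247 and to 3414 and 4953, with Mrc1, a receptor of macrophages, as the only one that fell (−1.35 ± 0.12, adjusted p = 0.0212), and without it the groups overlapped (2707 to 3044 against 2930 and 4388). The part of vessel, blood and macrophage markers in the values of Notch1 and Notch4 was not tested, and in whole tissue fewer cells of a type and less RNA per cell cannot be told apart. These 5 marker calls were all lost without any 1 of the mutIDH1 samples, with adjusted p between 0.0709 and 0.193, and that of Cdh5 also without either wtIDH1 sample (0.0608 and 0.0521).

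The ligands were mostly dim on this array. Dner, a transmembrane protein of neurons described as a non-classical Notch ligand, had the largest difference of any member. It was at 12.64, 12.61 and 12.36 in mutIDH1 and at 11.57 and 11.9998 in wtIDH1. All mutIDH1 samples were higher than both wtIDH1 samples, of which sample 1 was the lower. The difference was 0.75 ± 0.16, or 1.68-fold, with an adjusted p of 0.111. It passed without wtIDH1 sample 2 (0.97, adjusted p = 0.0404), where the only wtIDH1 sample was the lower one and its spread was assumed to equal that of mutIDH1, and was 0.54 without wtIDH1 sample 1 (adjusted p = 0.153).

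Neuronal markers did not follow the group as a whole. Their summed signal over 8 genes was 7897 to 14815 in mutIDH1, 2161 in wtIDH1 sample 1 and 20406 in wtIDH1 sample 2. Thus wtIDH1 sample 1 was lowest for Dner and for the neuronal sum alike. By contrast wtIDH1 sample 2 had the highest neuronal sum but a Dner signal below all mutIDH1 samples. Of these markers 0 passed by limma (0 at an unadjusted p under 0.05), and Snap25, Tubb3 and Nefl were at or under background throughout. Their part in the Dner values was not tested.

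Among the classical ligands Dll1 was above background in every sample, at 7.98, 7.95 and 8.18 in mutIDH1 and at 7.85 and 7.82 in wtIDH1. The groups did not overlap but the difference was small (0.21 ± 0.09, adjusted p = 0.423). Jag1, above background in 4 of 5 samples and at 7.52 to 7.80 in mutIDH1 and 7.67 and 7.84 in wtIDH1, had overlapping groups (−0.12 ± 0.11, adjusted p = 0.746). Dll3, a family member that acts inside the cell that makes it, passed background in mutIDH1 sample 3 alone, at 7.71, with 7.30 to 7.47 elsewhere. Neither Dll4, the ligand of sprouting vessels, nor Jag2 passed background in any mutIDH1 sample, and each did in 1 of 2 wtIDH1 samples. Dll4 reached 7.60 in wtIDH1 sample 2 and Jag2 7.58 in wtIDH1 sample 1. The Dll4 groups overlapped, while all mutIDH1 values of Jag2 lay below both wtIDH1 values. Neither passed by limma (adjusted p = 0.578 and 0.445), and signals this near background set no lower bound on a difference.

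**Figure D2:**
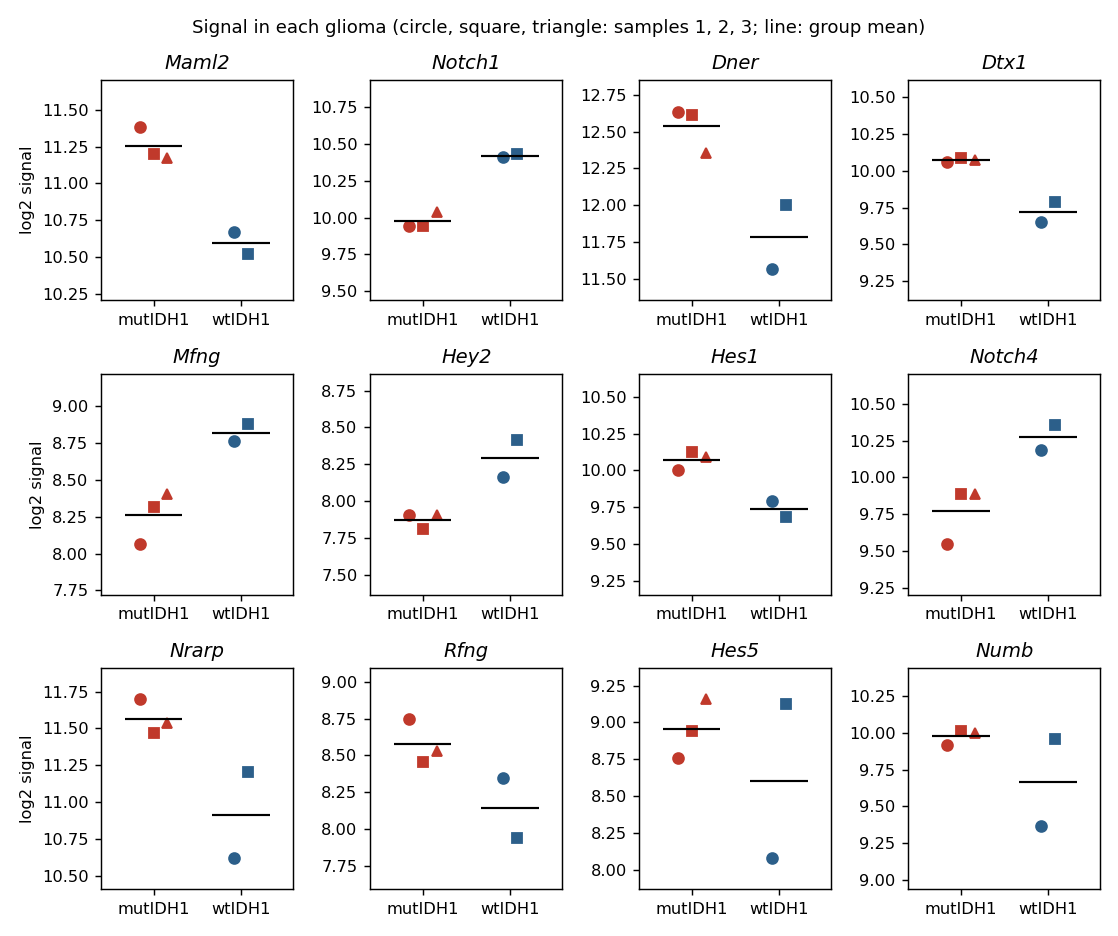
Log2 signal (vertical axis, each panel spanning the same range) of the 10 members with an unadjusted limma p under 0.05, and of Hes5 and Numb, in the 3 mutIDH1 (red) and 2 wtIDH1 (blue) gliomas, with black lines for group means. For Hes5 and Numb wtIDH1 sample 1 lies apart at 8.08 and 9.37, and wtIDH1 sample 2 lies within or next to the mutIDH1 samples.

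The Fringe enzymes, which add N-acetylglucosamine to fucose on the receptors and so shift their response between Delta and Jagged ligands, differed in direction. Mfng was at 8.06, 8.31 and 8.40 in mutIDH1 and at 8.76 and 8.88 in wtIDH1. Rfng was at 8.74, 8.46 and 8.53 in mutIDH1 and at 8.35 and 7.94 in wtIDH1. Neither pair of groups overlapped, and Mfng was the lower gene in mutIDH1 (−0.56 ± 0.12, adjusted p = 0.114) while Rfng was the higher (0.43 ± 0.15, adjusted p = 0.287). The Rfng difference was 0.23 without wtIDH1 sample 2 and 0.64 without wtIDH1 sample 1. Mfng differed in the same direction as the endothelial and red blood cell sums given above, whose part in it was not tested. Lfng was at or under background in all samples.

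Gamma-secretase, the protease that releases the intracellular domain, showed no group difference beyond the spread between samples. Psen2, a catalytic subunit, was nearly flat, at 8.24, 8.27 and 8.26 in mutIDH1 and at 8.21 and 8.24 in wtIDH1 (0.031 ± 0.066, 95% interval −0.13 to 0.20). Psenen, the small subunit that completes the enzyme, was at 12.18 to 12.44 in mutIDH1 and at 12.31 and 12.29 in wtIDH1 (0.036 ± 0.101, interval −0.22 to 0.29). The intervals thus reach 0.20 log2 for Psen2 and 0.29 for Psenen. Ncstn, the subunit that binds the substrate, was at 11.35 to 11.49 in mutIDH1 and at 11.90 and 11.40 in wtIDH1, so only wtIDH1 sample 1 stood out. Its difference of −0.23 ± 0.16 (adjusted p = 0.614) turned to 0.018 without that sample. Aph1a, the scaffold subunit, gave 8.45 to 8.63 in mutIDH1 and 8.79 and 8.39 in wtIDH1 (−0.061 ± 0.137), and its second probe, above background in 4 of 5 samples, had the opposite sign (0.38).

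In the nuclear complex Maml2 stood apart. Maml2 was at 11.39, 11.20 and 11.18 in mutIDH1 and at 10.67 and 10.52 in wtIDH1. All mutIDH1 samples were higher, and the gap of 0.51 between the groups was the widest of any member. The difference of 0.66 (1.58-fold, interval 0.41 to 0.91 log2) stayed between 0.58 and 0.73 with any single sample left out, with adjusted p from 0.0668 to 0.229. A second Maml2 probe, at 7.71 to 7.87 and thus just above background, showed 0.074, and the mean of both probes gave 0.37 (adjusted p = 0.0907). Its relative Maml1 was at 7.83 to 7.98 in mutIDH1 and at 8.15 and 7.95 in wtIDH1 (−0.17 ± 0.10, adjusted p = 0.553), and Maml3 was at or under background in every sample. All probes of Rbpj, the DNA-binding partner of the receptor, were also at or under background.

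The HES and HEY genes and Nrarp, read as the output of the pathway, did not move together. Hes1, the repressor that keeps neural progenitors undifferentiated, was at 10.003, 10.13 and 10.09 in mutIDH1 and at 9.80 and 9.69 in wtIDH1. All mutIDH1 samples were higher, by 0.33 ± 0.08 or 1.26-fold (adjusted p = 0.142). Nrarp, a gene induced by Notch whose product destabilises the intracellular domain, was at 11.70, 11.47 and 11.53 in mutIDH1 and at 10.62 and 11.20 in wtIDH1. The groups did not overlap, but the wtIDH1 samples differed by 0.58 from each other, nearly as much as the groups did (0.66 ± 0.19, adjusted p = 0.192). Without wtIDH1 sample 1 the Nrarp difference was 0.36 (adjusted p = 0.238), and without wtIDH1 sample 2 it was 0.95 (adjusted p = 0.0321), where 1 wtIDH1 sample, the lower one, was left and its spread was assumed to equal that of mutIDH1.

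Hes5, the other main effector of Notch in neural progenitors, was at 8.76, 8.94 and 9.16 in mutIDH1 and at 8.08 and 9.13 in wtIDH1. Only wtIDH1 sample 1 was low, and wtIDH1 sample 2 lay inside the mutIDH1 range. The difference of 0.35 ± 0.32 (adjusted p = 0.717) therefore had an interval from −0.44 to 1.15 and turned to −0.17 without wtIDH1 sample 1. A second Hes5 probe gave the same order for that sample, with 7.63 in it and 8.37 to 8.76 in the others. Hey1 resembled Hes5 in this, with 11.31 to 11.52 in mutIDH1, 10.96 in wtIDH1 sample 1 and 11.33 in wtIDH1 sample 2 (0.30 ± 0.14, adjusted p = 0.413).

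The sample low in Hes5, Hey1 and Nrarp was also lowest in the summed signal of astrocyte, neuron and myelinating oligodendrocyte markers, though not in every single marker. The astrocytes' summed signal over 8 genes was 41544 to 54542 in mutIDH1, 18195 in wtIDH1 sample 1 and 44978 in wtIDH1 sample 2. Of these markers 0 passed by limma (2 at an unadjusted p under 0.05, both higher in mutIDH1), and none was at or under background in all samples. The 2 were Sox9 (2.33 ± 0.34, adjusted p = 0.0509) and Slc1a3 (0.92 ± 0.23, adjusted p = 0.149). For both, each wtIDH1 sample lay below all mutIDH1 samples. Of the 8 markers 6 had differences above 0 and 2 below. The 5 tested markers of myelinating oligodendrocytes summed to 12573 to 48553 in mutIDH1, 9179 in wtIDH1 sample 1 and 42222 in wtIDH1 sample 2, and the neuronal sum of wtIDH1 sample 1 is given above. The part of these 3 lists in the values of Hes5, Hey1 and Nrarp was not tested.

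Hey2 and Heyl, HEY family members known from arteries and mural cells, stood on the other side. Hey2 was at 7.90, 7.81 and 7.90 in mutIDH1 and at 8.16 and 8.42 in wtIDH1. All mutIDH1 samples were lower (−0.42 ± 0.10, adjusted p = 0.141), and a second Hey2 probe had the same sign (−0.25). Heyl was at 7.32, 7.75 and 7.44 in mutIDH1 and at 7.74 and 7.78 in wtIDH1, with 1 mutIDH1 sample above background (−0.25 ± 0.14, adjusted p = 0.522). The promoters of Hes5 and Hey2 printed above hold the same number of motif copies in the window used. The part of these copies in the Hes5 and Hey2 values was not tested. The endothelial and red blood cell sums given above were lower in mutIDH1 as well, and their part in Hey2 and Heyl was not tested. Hes6, which antagonises Hes1 and favours differentiation, was at 9.87 to 10.09 in mutIDH1 and at 10.37 and 10.04 in wtIDH1 (−0.23 ± 0.13, adjusted p = 0.528), with the same sign in all 3 of its probes.

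**Figure D3:**
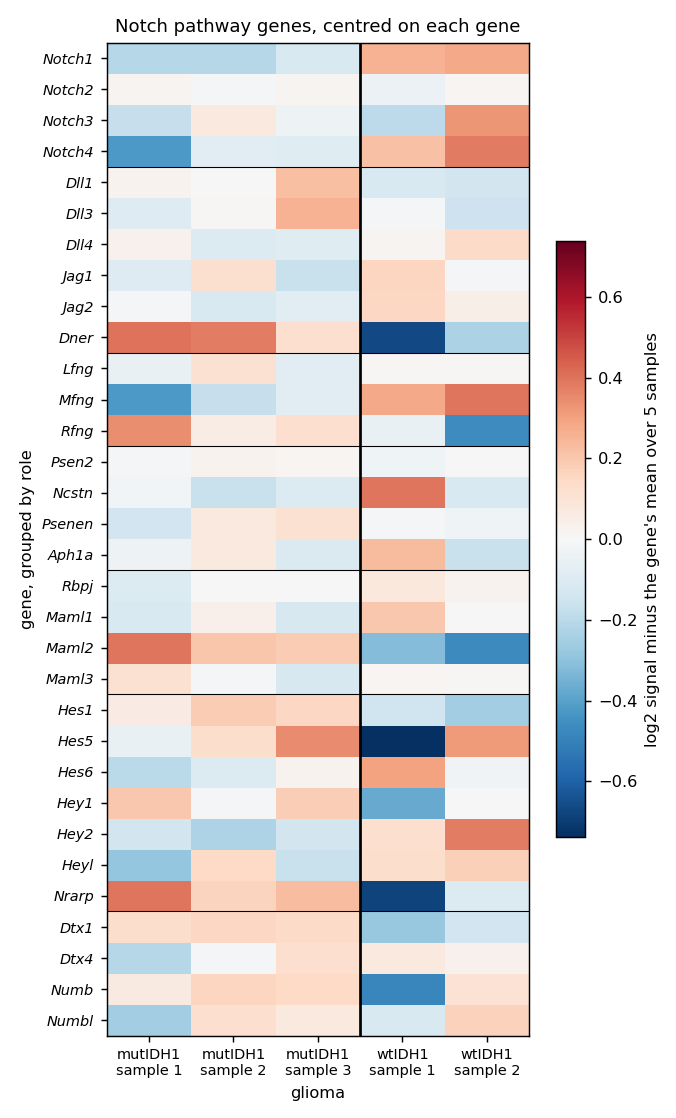
Log2 signal of each measured Notch pathway gene minus that gene's mean over the 5 gliomas (red higher, blue lower), with genes in rows grouped by role and samples in columns. The bluest cells of Hes5, Dner and Nrarp all lie in wtIDH1 sample 1, while Notch1, Notch4, Mfng and Hey2 are red in both wtIDH1 samples.

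Of the cytoplasmic regulators Dtx1 separated the groups with the least spread. Dtx1, a Deltex ubiquitin ligase that binds the receptor's ankyrin repeats, was at 10.06, 10.09 and 10.08 in mutIDH1 and at 9.65 and 9.79 in wtIDH1. The mutIDH1 samples lay within 0.024 of each other and all above wtIDH1 (0.35 ± 0.08, 1.28-fold, adjusted p = 0.113). Dtx4 showed −0.088 ± 0.113 with its brightest probe and 0.18 with its other one. Numb, an adaptor that promotes receptor uptake and degradation, was at 9.92, 10.01 and 9.998 in mutIDH1 and at 9.37 and 9.96 in wtIDH1. As for Hes5, only wtIDH1 sample 1 was low, and the difference of 0.31 ± 0.18 (adjusted p = 0.538) was 0.016 without it. Without wtIDH1 sample 2 it was 0.61 (adjusted p = 0.0485), with the same single low wtIDH1 sample and the same assumption. Its relative Numbl had overlapping groups, at 7.66 to 8.04 in mutIDH1 and 7.80 and 8.09 in wtIDH1.

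For Hes5, Hey1, Numb and Ncstn, wtIDH1 sample 1 thus lay apart from all other samples. In wtIDH1 sample 1 lay the value farthest from the gene's median for 13 of 32 members (40.6%), against 27.6% of all genes. In wtIDH1 sample 2 it lay for 8 (25%), against 25.5%. Since mutIDH1 has more samples, the median is a mutIDH1 value wherever the groups do not overlap. These shares therefore also count separation of the groups and do not show variation through a single tumour. Over all genes the wtIDH1 samples correlated at r = 0.971 with each other, the mutIDH1 samples at 0.988 to 0.994, and samples of different groups at 0.969 to 0.980. Genes are not independent replicates, and with 5 arrays the precision of all values is limited by their number. Markers of oligodendrocyte precursors, cells that PDGF-driven gliomas are known to resemble, were present. None of the 6 (Olig1, Olig2 and Sox10 among them) was at or under background in all samples. They summed to 60696 to 67536 in mutIDH1 and to 61968 to 62665 in wtIDH1. Of these markers 0 passed by limma (3 higher and 1 lower at an unadjusted p under 0.05). The similar sums hide opposite directions: 5 differences were above 0, while Olig1, the brightest of the 6, stood at −0.32 ± 0.10 (adjusted p = 0.219).

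**Figure D4:**
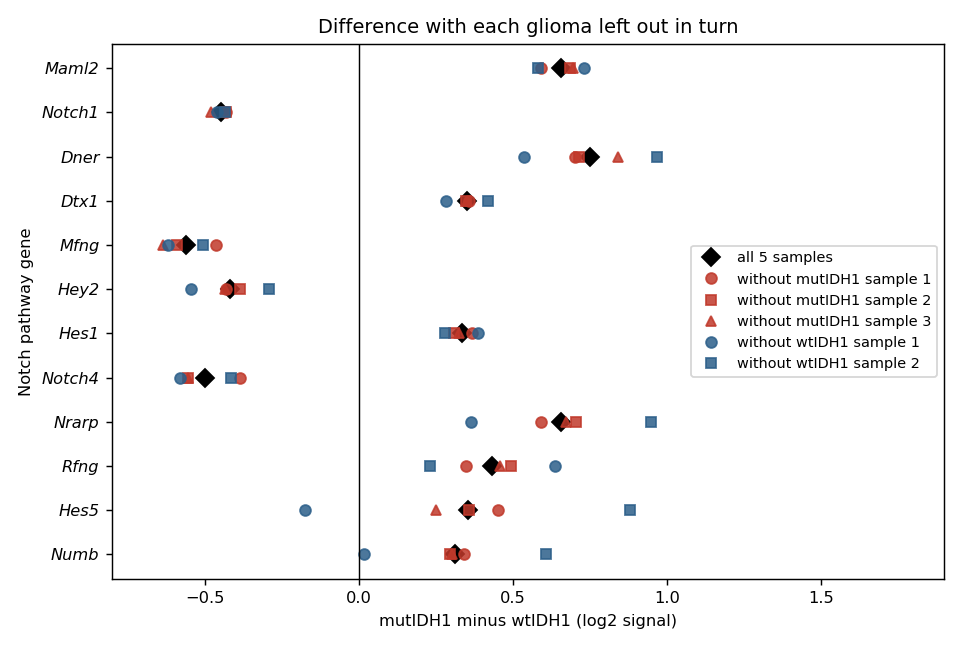
Difference between mutIDH1 and wtIDH1 (horizontal axis, log2 signal) for 12 Notch pathway genes with all 5 gliomas (black) and with each glioma left out. Notch1 stays between −0.48 and −0.43, whereas Hes5 runs from −0.17 to 0.88 and Numb from 0.016 to 0.61, depending on which wtIDH1 sample is left out.

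**Figure D5:**
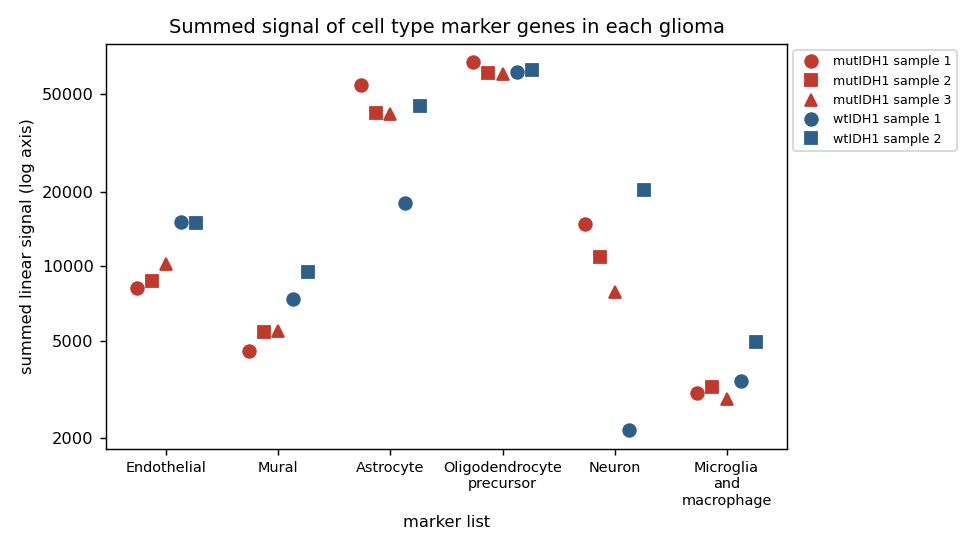
Summed linear signal (log axis) of 6 lists of cell type markers in each glioma, red for mutIDH1 and blue for wtIDH1. Endothelial sums are higher in both wtIDH1 samples, as are mural sums, though those overlap without Acta2, and wtIDH1 sample 1 is lowest for astrocyte (18195) and neuron (2161) markers.

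Other genes of the pathway came from 6 lists of 62 genes, of which 49 were tested. By the test 0 rose and 2 fell, beside 0.449% higher and 0.899% lower over all genes. Both that fell belong to the 10 tested genes of ligand handling and non-canonical ligands (median difference −0.21, against 0.014 over all genes). Dlk1, a Delta-like protein without the domain that activates Notch, was at 10.71, 10.58 and 10.37 in mutIDH1 and at 11.97 and 11.95 in wtIDH1. It fell by 1.41 ± 0.11 on the log2 scale (2.65-fold higher in wtIDH1, adjusted p = 0.0186), with a gap of 1.24 between the groups. Egfl7, a secreted protein of endothelial cells that can bind Notch, was at 11.08, 11.26 and 11.27 in mutIDH1 and at 12.24 and 12.03 in wtIDH1. It fell by 0.93 ± 0.10 (adjusted p = 0.0311), beside the lower endothelial sum, whose part in it was not tested. Without mutIDH1 sample 1, 2 or 3 the adjusted p of Dlk1 was 0.0502, 0.144 and 0.0960, and that of Egfl7 was 0.0863, 0.178 and 0.157. Egfl7 also lost its call with the mean of its probes (−0.65, adjusted p = 0.0547).

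No gene of the other pathway lists passed by limma. Beside Dlk1, Egfl7 and Cntn1, 3 genes were higher and 2 lower at an unadjusted p under 0.05. Over all 49 tested genes of the 6 lists 4 were higher and 4 lower at that level, against 7.11% and 7.25% of all genes. Cntn1, a neural adhesion protein reported as a Notch ligand, stood at 0.42 ± 0.11 (adjusted p = 0.176). Among 6 genes of receptor maturation and cleavage, Poglut1, the enzyme that puts glucose on the receptor, stood at 0.27 ± 0.07 (adjusted p = 0.173). Among 15 nuclear cofactors, the acetyltransferase gene Ep300 stood at 0.35 ± 0.08 (adjusted p = 0.139) and Rbpjl, a relative of Rbpj, at −0.48 ± 0.16 (adjusted p = 0.265). Among 10 proneural factors and Id genes, Insm1, a zinc finger factor of neuronal precursors, stood at 0.61 ± 0.10 (adjusted p = 0.0628). It was at 7.93, 8.08 and 8.07 in mutIDH1 and at 7.32 and 7.52 in wtIDH1. Of these wtIDH1 values the first lay under background and the second at the background level. In the same list Id1, an inhibitor of proneural factors, stood at −0.91 ± 0.15 (adjusted p = 0.0660). The lists of receptor turnover and of other HES family genes had 0 genes past the threshold and 0 at an unadjusted p under 0.05.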

How the data were processed

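Gene expression was measured once in each of 5 mouse gliomas, and groups and sample numbers come from the sample titles. The deposited values are log2 signals of 45281 probes. The submitters' processing notes name limma without a version, and the sources used here do not give the authors' background and normalization steps. Array medians differ by at most 0.00069, so the values were taken as already normalized between arrays, with a lowest linear signal of 120.2, so background was not subtracted to 0 and dim differences are compressed. Another deposited table has 10 columns of per-sample values whose names fit none of the labels alone, and they stayed out.

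Probes were named through the platform annotation: 34885 had 1 symbol, 18 several and 10378 were unnamed here, and 34807 were updated through RefSeq gene identifiers (GRCm38.p6). The dimmest 20% of probes (mean under 7.23) were left out, and the brightest probe stood for each of 16917 genes. The background level added 3 spreads (0.0908 each, measured below the mode) to the most common signal, 7.25. Where all arrays of a group lie at or under that level, no fold is given. The test was 2-sided, from lmFit and eBayes of limma 3.58.1 (R 4.3.3) with group as the only term, with 3 residual and 2.50 prior degrees of freedom, and the test was checked on simulated data. Sample numbers were not taken as pairs, since the labels do not link same-numbered tumours.

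The members and lists were chosen with earlier results of these data known. All members were reported. Of the other lists the text names genes that passed, and of the pathway lists up to 3 with the smallest p, where that p was under 0.05 unadjusted. Some marker genes that did not pass are named too. The marker lists of T and B cells (3 of 6 genes tested), microglia and macrophages (7 of 8), red blood cells (3 of 6) and myelinating oligodendrocytes (5 of 6) were read too. Of these only Mrc1 of the macrophage list passed. Marker sums without the gene of largest difference in a list were added after seeing the data.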

Additional observations from a re-analysis of the deposited data

How the results depend on the processing

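Over 13 alternatives (12 for Maml3, Notch2 and Rbpj, which leaving out the dimmest 40% of probes removed), 22 of the 32 members kept the sign of their difference and 10 turned it at least once, with 17 values reversed in all. The number of members that passed was 0 in the main test, 1 with the mean of all probes of a gene (Notch1, at an unaltered −0.45 and adjusted p = 0.0487), 2 with trended and robust moderation (Maml2 and Dner, adjusted p = 0.0442 and 0.0473), and from 0 to 3 with single samples left out. It was 3 without wtIDH1 sample 2 (Nrarp, Dner and Numb), where the spread comes from mutIDH1 alone, and 9 to 13 had an unadjusted p under 0.05 in those fits. Over all genes the count was 228 in the main test, 363 with trended and robust moderation, 59 with sex (read from Xist and Eif2s3y) as a covariate, and from 0 to 479 with single samples left out. It was 14 without mutIDH1 sample 1, 0 without mutIDH1 sample 2 or 3 (1747 and 1849 at an unadjusted p under 0.05) and 479 without wtIDH1 sample 2. The cause was not tested. With the sample number as a replicate block 0 genes passed by limma (1562 at an unadjusted p under 0.05) and 0 members (8 unadjusted); that fit has fewer residual degrees of freedom. Deviations from the group means correlated at −0.263 between same-numbered samples 1 and at 0.107 between samples 2. The deviations of 2 wtIDH1 samples mirror each other, so both values rest on 1 contrast. They cannot show whether the numbers acted as a pairing. With sex as a covariate Egfl7 (adjusted p = 0.0764) and the markers Vwf, Emcn, Cdh5, Pdgfrb and Mrc1 (0.0613 to 0.0824) lost their call. Dlk1, Egfl7 and all 6 marker calls were also lost with the replicate block (0.393 to 0.410), and Mrc1 without any 1 of the mutIDH1 samples (0.0502 to 0.168).

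Signs turned mostly in members with differences near 0. With single samples left out the difference ran from −0.26 to 0.14 for Aph1a, −0.17 to 0.88 for Hes5, −0.072 to 0.024 for Lfng, −0.077 to 0.040 for Maml3, −0.49 to 0.018 for Ncstn, −0.0022 to 0.054 for Notch2, −0.37 to 0.15 for Notch3, −0.19 to 0.094 for Numbl and −0.014 to 0.12 for Psenen. The mean of all probes turned Aph1a to 0.094 and Dtx4 to 0.047. Sex as a covariate turned Maml3 to 0.0014, and the replicate block turned Lfng to 0.024, Maml3 to 0.040 and Psenen to −0.014. Signal over background limits Notch2, Lfng, Maml3 and Rbpj, which no sample showed above it.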
